A study of Rattus norvegicus with 6 samples.

Results

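Unc79 encodes a large auxiliary subunit of the sodium leak channel complex, and it was among the host genes with the most circular RNA in rat white matter. The members described here are all entries whose host gene is named Unc79 in the authors' table, which gave 14 of 11123 entries. The gene was chosen by the junction read counts of its main circle, known to be high in these libraries, so its level and rank are given as a description, without a test. The comparison of model with control rats played no part in that choice. The data come from 3 rats of a cerebral palsy model and 3 normal control rats, with 1 library of white matter RNA per rat. No genotype, strain, age, sex or agent is given for either group in the sources used here, nor how the model was made.

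NALCN is an ion channel that lets a small sodium current leak into neurons at rest and so helps to set their resting potential and firing. UNC79 and UNC80 are large proteins that bind each other and the channel, and FAM155A (NALF1) is a further subunit that helps the channel reach the cell surface. The complex is known mainly from neurons, while white matter consists mostly of axons and glia. A circular RNA (circRNA) forms when the spliceosome joins the end of an exon to the start of the same or an earlier exon. The reads that cross this back-splice junction count the circle, and they do not measure the mRNA of the gene.

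The libraries held 5821, 4750 and 5697 junction reads in model rats 1 to 3 and 6793, 6285 and 5926 in control rats 1 to 3. Altogether 8635 circRNAs from 3696 host genes had a read, and 4514 of these circRNAs (52.3%) had a single one. Circles from chromosome Y had 0 reads in model rats and 13 in control rats, summed over the 3 rats of each group. With the sex of no rat given, a difference in sex between the groups could not be separated from the model. Its part in the values below was not tested. Circles of cell marker genes were scarce. The 12 markers of myelinating oligodendrocytes had 3 reads in model rats and 17 in control rats, or 0 to 0.063% of a model library and 0.029 to 0.13% of a control library, with Mog, Mag, Cnp, Cldn11, Ermn, Mal and Aspa at 0. The 12 neuron markers had 11 reads in model rats and 9 in control rats, or 0 to 0.14% of a model library and 0.016 to 0.088% of a control library. Of these 12, only Rbfox3, Snap25 and Syt1 had a read. Of 8 astrocyte markers Slc1a2 and Gfap had reads, 24 in model and 33 in control rats, and 7 microglia markers had 0. The markers of oligodendrocyte precursors had 1 read in model rats and 4 in control rats, and endothelial markers had 4 in model rats and 11 in control rats. With so few reads, circles of marker genes could neither show nor refute the tissue label. The RNA is from bulk tissue, in which fewer cells of a type and less RNA per cell cannot be told apart.

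Unc79 circRNAs took 354 of 35272 junction reads, and 331 of the 354 belonged to a single circle. This main circle, circRNA1253, runs from position 122125681 to 122155184 of chromosome 6 on the plus strand (build mRatBN7.2). It spans 29504 bp of genome and holds 6 exons of the transcript ENSRNOT00000107056, to which all 14 entries are assigned. Of the other 13 entries, 10 had 1 to 6 reads each and 3 had none, and 0 reads allows up to 3. Of the 11 entries with a read, 10 are exonic and 1 is a ciRNA, a circular RNA from within an intron.

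The main circle sits at the upstream end of a region of 189829 bp that the Unc79 junctions cover, and it takes up 15.5% of that region. No other host gene has an entry in the region. An intron of 42385 bp lies directly upstream of the circle and one of 21817 bp directly downstream. Among 7447 exonic circRNAs with a read and both flanking introns listed, the median upstream intron was 8164 bp and the median downstream intron 7209 bp. The upstream intron of the main Unc79 circle was longer than that of 87.6% of these circRNAs, and the downstream intron longer than that of 79.1%. Set against the 27 such circRNAs with at least 100 reads, the upstream intron was longer than in all 26 others, where the median over the 27 was 14101 bp. The downstream intron was not unusual in that company, with 10 of the 27 having a shorter one and a median of 24478 bp. With 6 exons the main circle also held more exons than 22 of these 27 circRNAs, whose median was 3.

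The other entries near the main circle use the same splice sites. The start of the main circle is shared by circRNA7048, circRNA1252 and circRNA9218, and its end by circRNA1254. Of the 337 reads that use the shared start, 98.2% joined it to the end of the main circle. Of the 337 reads that use the shared end, 98.2% likewise came from the main circle. circRNA7048 holds the first 3 of its 6 exons (122125681 to 122135743) and circRNA1254 the last 3 (122145049 to 122155184), so both together cover the same exons without overlap. circRNA1252 holds the first 4 and ends at 122145141. From these borders the fourth exon of the main circle is 122145049 to 122145141, a stretch of 93 bp. The last 2 exons lie within 858 bp, from 122154327 to 122155184. circRNA9218 would add 1 exon of 65 bp downstream of the main circle, and it had 0 reads.

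The circles inside the main circle were read rarely in both groups. circRNA1254 had 0, 1 and 2 reads in model rats 1 to 3 and 3, 0 and 0 in control rats 1 to 3. It was the second most abundant Unc79 circRNA, with 6 reads in all. circRNA1252 had 1, 0 and 0 reads in model rats and 1, 1 and 1 in control rats. These libraries overlap between groups for both circles. circRNA7048 had 2 reads, both in model rat 3. With the main circle left out, junctions that overlap it had 6 reads in model rats and 6 in control rats.

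Downstream of the main circle the table lists 9 more entries, of which 7 had a read and which held 11 reads together, 5 in model rats and 6 in control rats. All 5 model reads came from model rat 1. They were 2 reads of circRNA5458, a circle of 12 exons from 122283701 to 122315509, and 1 read each of circRNA5457, circRNA4393 and circRNA3148. Control rat 2 held 4 of the control reads, from circRNA3147 (2 reads, 9 exons), circRNA3148 and the intronic ciRNA305. The remaining 2 were 1 read of circRNA1255 in control rat 1 and 1 of circRNA4393 in control rat 3. ciRNA305 spans 122235942 to 122236345 and begins at the first base of its host intron, which ends at 122243671. Some of these rare circles again share a splice site, with circRNA5458 and circRNA3148 starting at 122283701 and circRNA3147 and circRNA5457 ending at 122222873. Exonic Unc79 circles with a read ranged from 2 to 12 exons and from 1820 to 31809 bp. Of the 10 circles besides the main one, 6 were seen in 1 library only.

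**Figure D1:**
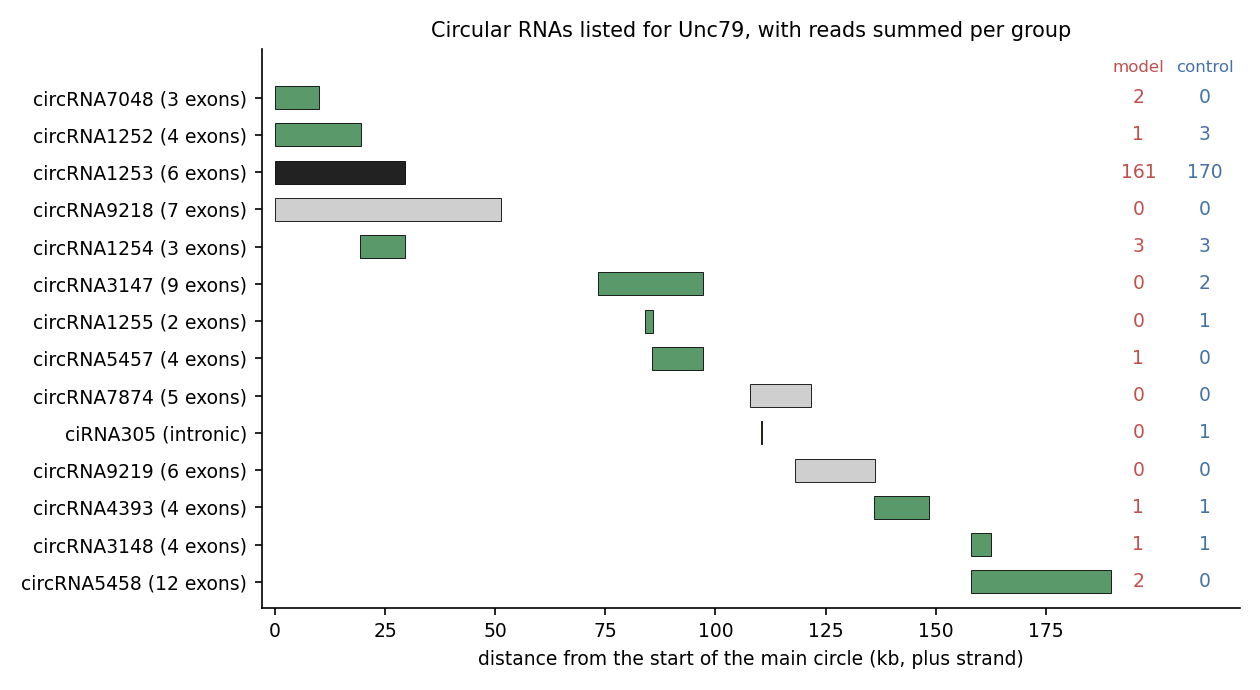
Each bar is 1 of the 14 Unc79 entries, drawn from its start to its end as distance from the start of the main circle (kb); black is the main circle, green other exonic circles with a read, the thin line the intronic one (404 bp) and grey entries with 0 reads, with reads summed over 3 model and 3 control rats at the right. The main circle holds 161 reads in model rats and 170 in control rats, and no other entry has more than 3 in either group.

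The main circle made up most of the Unc79 reads in every rat. Its share was 90.3%, 97.4% and 94.4% in model rats 1 to 3, and 91.1%, 93% and 96.4% in control rats 1 to 3. The groups overlap, and each share has a wide exact binomial (Clopper-Pearson) 95% interval, such as 80.1 to 96.4% in model rat 1 and 87.5 to 99.6% in control rat 3. These intervals cover counting error only, since PCR copies of a molecule cannot be told from separate molecules here. Pooled over rats, the share was 93.6% in the model (161 of 172 reads) and 93.4% in controls (170 of 182 reads). The mean of the shares was 94% ± 3.54 in model rats and 93.5% ± 2.68 in control rats (SD, n = 3 each). The difference of 0.581 percentage points was smaller than the spread between rats (exact two-sided permutation p = 0.8, where 3 against 3 rats allow no p below 0.1).

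The number of different Unc79 circles seen was 6, 2 and 3 in model rats 1 to 3 and 4, 5 and 3 in control rats 1 to 3. Model rat 2, which had the fewest junction reads and the fewest Unc79 reads (38), showed circRNA1254 as its only circle besides the main one. The 10 rare circles together stood at 1.07, 0.206 and 0.691 reads per 1000 in model rats and 0.737, 0.798 and 0.336 in control rats. Reads per 1000 are per 1000 junction reads of the library, after scaling by TMM, a factor that evens out differences in composition. The lowest and the highest values are both from model rats. The means were 0.656 ± 0.434 in model rats and 0.624 ± 0.251 in control rats (SD, n = 3 each; exact two-sided permutation p = 1).

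**Figure D2:**
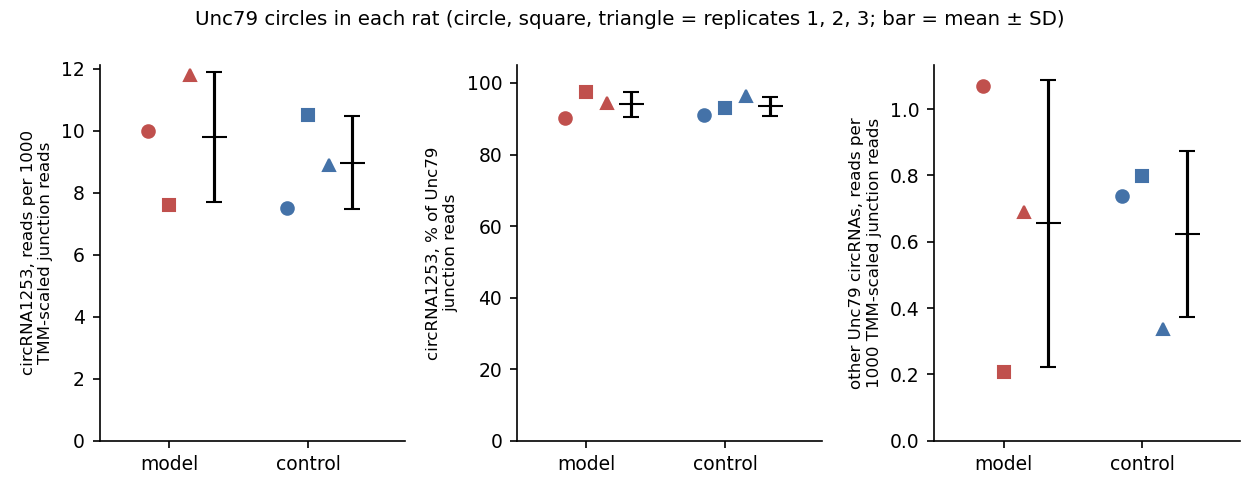
Points are single rats (model left, control right) and bars the mean ± SD of 3 rats, for the main circle in reads per 1000 TMM-scaled junction reads, its share of Unc79 reads in percent and the summed other Unc79 circles in reads per 1000. In each panel the model and control points overlap.

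Few hosts with so many circles had their reads this concentrated. Among 136 hosts with at least 50 reads, the most abundant circle held a median of 61% of the reads and a minimum of 13.5%. Unc79, at 93.5%, came 28th of the 136. Many hosts above it had little to choose from, with Arid1a and Elf2 giving 1 circRNA each and Nfix 2. Others above it gave more, such as Ttll7 (8 circRNAs, 95%), Srbd1 (6, 95.7%) and Parg (5, 94.2%). Unc79 had 11 circRNAs, 3 of them with 1 read. Among the 45 hosts with at least 10 different circRNAs, where the median was 45.4%, Unc79 had the highest share. Fbxl17, an F-box gene with 10 circRNAs, was next at 91.8%. The limits of 50 reads and 10 circRNAs were set after the values were known, and this order is a description.

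**Figure D3:**
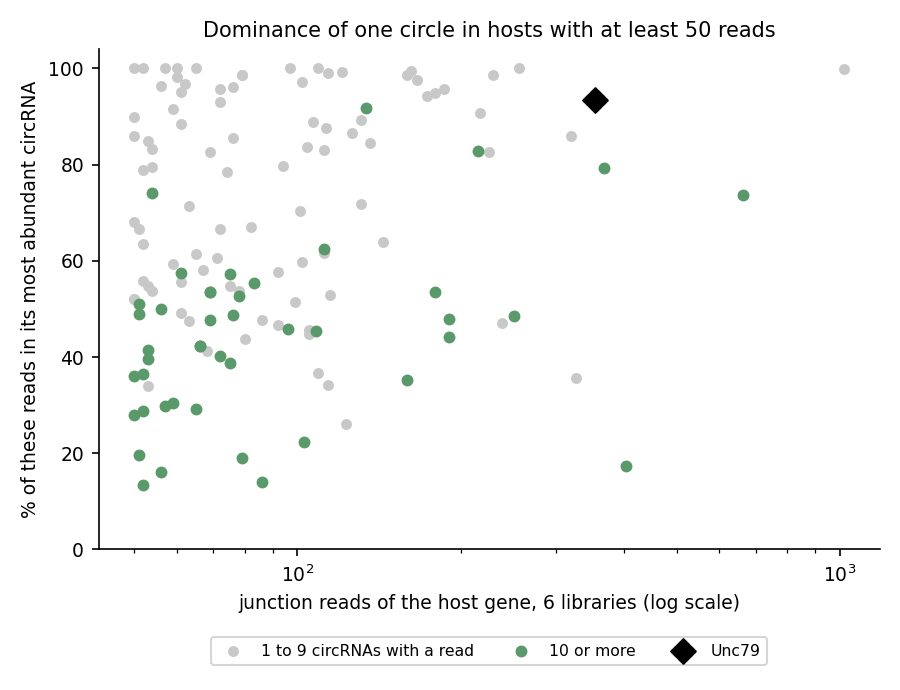
Each point is 1 of 136 host genes with at least 50 junction reads, with its reads over 6 libraries (log scale) against the percent of them in its most abundant circRNA; green points have 10 or more circRNAs with a read and the black diamond is Unc79. Unc79 lies at 93.5%, above all other hosts with 10 or more circRNAs.

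By reads over all 6 libraries the main circle ranked 3rd of the 8635 circRNAs, and Unc79 ranked 5th among hosts. The circle ranked 3rd, 5th and 2nd in model rats 1 to 3 and 5th, 3rd and 4th in control rats 1 to 3. The next circRNA above it in reads came from Atrnl1 and the next below from Dtnb, the gene of dystrobrevin beta. The Dtnb circle had 32, 46 and 53 reads in model rats and 53, 49 and 59 in control rats, so that its counts overlap those of the Unc79 circle in both groups.

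The comparison of model with control rats asks whether the circle's level differed with the disease model. The main circle had 56, 37 and 68 reads in model rats 1 to 3 and 51, 66 and 53 in control rats 1 to 3. The lowest and the highest raw count are both from model rats, and all 3 control counts lie between them. As levels these were 9.99, 7.6 and 11.8 reads per 1000 in model rats and 7.52, 10.5 and 8.91 in control rats, with control rat 1 the lowest after scaling. The means were 9.78 ± 2.08 in model rats and 8.99 ± 1.51 in control rats (SD, n = 3 each).

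The log2 fold, model over control, was 0.13 ± 0.32 (SE), with adjusted p = 0.964 in edgeR's quasi-likelihood test with Benjamini-Hochberg adjustment over the 60 circRNAs that passed its low-count filter. The 95% interval of this fold ran from -0.53 to 0.79, or from 0.691 to 1.72 times the control level. These data do not tell apart the folds within that interval, and which folds 3 rats per group could detect was not calculated. Of the 60 circRNAs, 2 passed an adjusted p of 0.05, which is 3.33%, both lower in model rats (circles of Erbin and Atrnl1). These calls were not firm. In 6 of 14 alternatives, DESeq2 and limma voom among them, 2 circRNAs passed. But 0 passed with DESeq2 size factors in edgeR or with no filter, and 0 or 1 with any 1 library left out. The Unc79 fold was among the smaller ones, with 14 of the 60 closer to 0. Its standard error was the second smallest of the 60, against a median of 0.46. None of the 10 rare Unc79 circles passed the filter, so the test of single circRNAs covers 1 of the 14 entries.

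The sum over all Unc79 circles adds the rare junctions and gave nearly the same picture. The sums were 62, 38 and 72 reads in model rats 1 to 3 and 56, 71 and 55 in control rats 1 to 3. In these raw counts the lowest and the highest value are again both from model rats. As levels the sums were 10.6, 8.41 and 12.7 reads per 1000 in model rats and 7.97, 10.7 and 9.65 in control rats, so that after scaling the lowest was control rat 1. The levels averaged 10.6 ± 2.13 reads per 1000 in model rats and 9.46 ± 1.40 in control rats (SD, n = 3 each). The log2 fold was 0.16 ± 0.29 (SE), with a 95% interval from -0.45 to 0.78 and adjusted p = 0.879 in edgeR over 107 host genes. Of these 107, 2 passed (1.87%), Stk39 and Erbin, both lower in model rats. With 1 library left out 0 passed, except without model rat 1, where 4 did, 1 of them higher. Since 331 of 354 reads are those of the main circle, the sum is not a separate result.

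The sign of the Unc79 fold changed with the authors' scaling only, among the scalings tried. For the main circle the edgeR log2 fold was 0.13 with TMM, 0.19 with DESeq2 size factors and 0.13 with plain library totals. The fit with the authors' divisors, given below, was added after seeing the data. In the authors' normalised unit, SRPBM, the main circle stood at 1346.3, 920.1 and 1530.5 in model rats and 1155.2, 1522.0 and 1322.9 in control rats, with means of 1266 ± 313 in model rats and 1333 ± 184 in control rats (SD, n = 3 each). The authors' deposited table gives this circle a log2 fold of -0.075, model over control, with p = 0.878, q = 1 and no mark of change. That table marks 35 of its 11123 entries as changed (0.315%), and 0 of the 14 Unc79 entries. For 6 of the 14 its fold is infinite because 1 group had no read, and these rest on 1 or 2 reads each. With the authors' divisors as library sizes, the edgeR log2 fold was -0.073 ± 0.32 for the main circle and -0.075 ± 0.31 for the sum (SE). Without control rat 1 the fold of the main circle was -0.048, and without model rat 2 it was 0.35. That last fold was the largest over the settings tried, with a standard error of 0.30 and adjusted p = 0.805 in edgeR (adjusted p 0.805 to 0.997 over all alternatives).

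**Figure D4:**
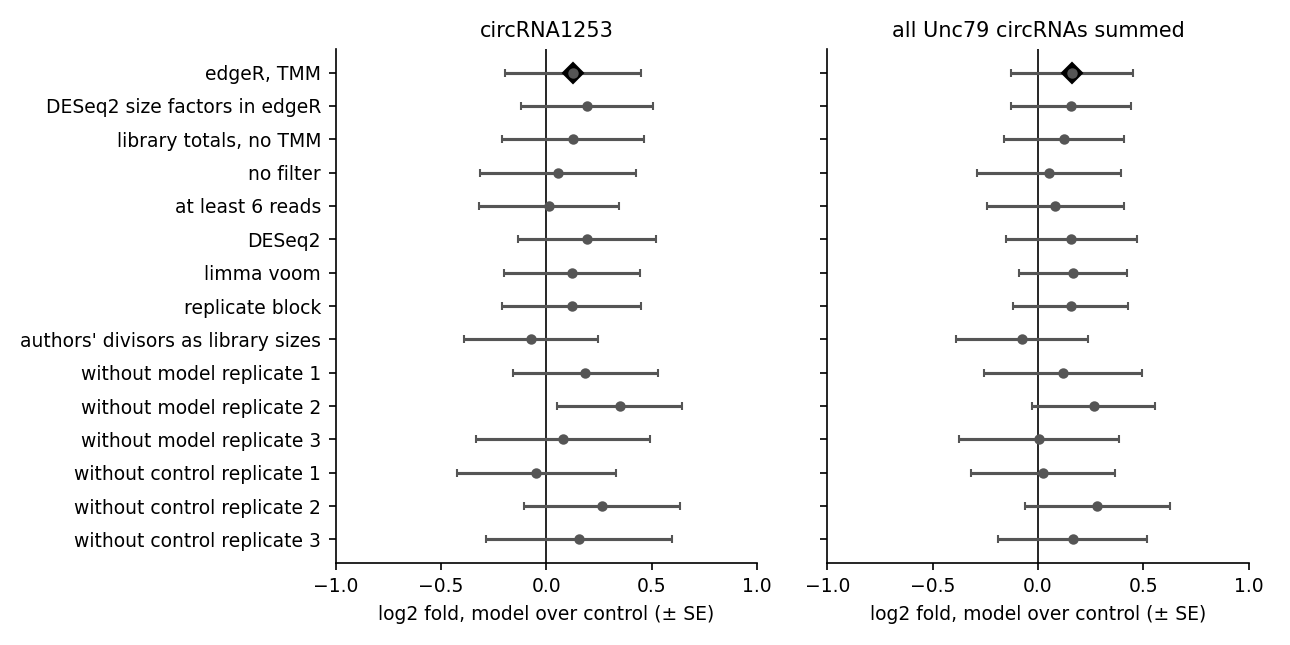
Points are the log2 fold, model over control, and bars its SE, for the main circle (left) and all Unc79 circles summed (right), with the main test at the top and each alternative setting below. The folds lie between -0.073 and 0.35 for the main circle and between -0.075 and 0.28 for the sum.

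The main circle was one of the steadier abundant circRNAs over the 6 libraries, whatever their group. Its level, here per 1000 junction reads without TMM, lay between 7.51 and 11.9. The variance of its counts around equal levels was 1.76 times the variance that counting alone gives. Over the 27 circRNAs with at least 100 reads this ratio had a median of 2.97, and the Unc79 circle was 7th from the lowest. At equal relative spread the ratio rises with the number of reads. These ran from 102 to 1018, with 331 for the Unc79 circle, so the order does not rank relative spread alone. The Sergef circle was lowest at 0.288, and the circles of Erbin (13.3) and Atrnl1 (17.9), both past the threshold between groups, were highest. Because the ratio is taken over all 6 libraries, it includes any difference between the groups. The place of these 2 circles is thus not separate from their calls.

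**Figure D5:**
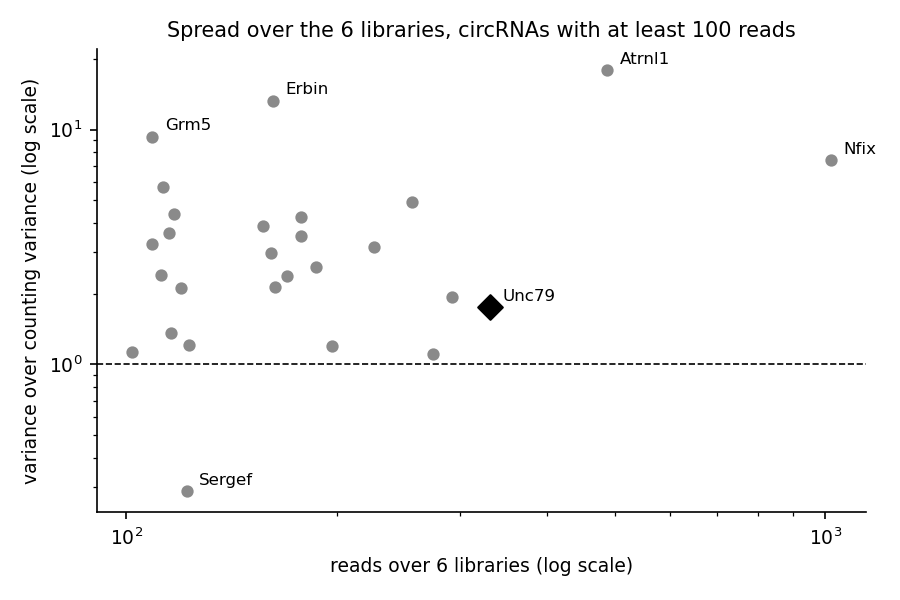
Each point is 1 of 27 circRNAs with at least 100 reads, with its reads (log scale) against the ratio of its variance over the 6 libraries to counting variance (log scale); the dashed line marks a ratio of 1. The Unc79 circle (black diamond) lies at 1.76, below the median of 2.97.

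The pattern of the Unc79 circle over the libraries was compared with that of each other tested circRNA. Likeness was measured as the root mean square difference in log2 level over the 6 libraries after each circRNA was centred on its own mean, and its median over 59 circRNAs was 0.537. The most alike was a circle of Bbs9, a BBSome subunit gene, at 0.164. It had 35, 25 and 43 reads in model rats 1 to 3 and 31, 31 and 32 in control rats 1 to 3. Next came circRNA2293 of Arhgap32 at 0.263 and the Sergef circle at 0.271. The Sergef circle had 18, 19 and 23 reads in model rats and 23, 20 and 19 in control rats, so it was flat rather than high and low in the same libraries as the Unc79 circle. All share the same 6 libraries and their depths, and steady circRNAs lie close to each other by this measure.

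The other genes of the complex gave far fewer circular reads than Unc79. Nalcn, which encodes the channel pore, had 8, 1 and 4 reads in model rats 1 to 3 and 3, 7 and 1 in control rats 1 to 3. The groups overlap, and the 24 reads were 14.8 times fewer than the 354 of Unc79. Unc80, which encodes the partner subunit that binds UNC79, had 1, 0 and 1 reads in model rats and 3, 0 and 1 in control rats. Its 6 reads were 59 times fewer than those of Unc79. These are counts of junction reads, which do not scale with gene length as mRNA reads do. Nalf1 and Nalf2, also searched as Fam155a and Fam155b, had 0 reads.

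Neither of these genes had a dominant circle of the Unc79 kind. The 24 Nalcn reads were spread over 10 circRNAs, 6 of them with a single read. The most abundant, circRNA640 (chromosome 15, 100702168 to 100712280, minus strand, 5 exons), held 8 of the 24, which is 33.3% with an exact binomial 95% interval of 15.6 to 55.3%. This interval treats reads of all 6 rats as independent, and Unc79 was chosen by the reads of its main circle, so its share and that of Nalcn are a description. circRNA640 had 1, 0 and 1 reads in model rats and 2, 3 and 1 in control rats. A second Nalcn circle, circRNA5217, had 5 reads, all of them in model rat 1. Unc80 had 5 circRNAs, 4 of them with 1 read, and its top circle held 2 of 6 reads (33.3%, exact interval 4.33 to 77.7%).

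Of 7 genes described as regulators of the channel, such as the kinases Src and Fyn and the receptors Tacr1, Chrm3 and Casr, Fyn had 2 reads in model rats and 0 in control rats. Gnaq, a G protein alpha subunit gene, had 1 read in model rats and 2 in control rats, and the other 5 had 0. A further list held 25 genes of channels that carry other currents at rest, among them HCN, two-pore potassium and inward rectifier channels. Of these, 9 had a read, with 50 reads together in model rats and 81 in control rats. They took 0.27 to 0.38% of a model library and 0.35 to 0.47% of a control library, ranges that overlap. Kcnt2, a sodium-activated potassium channel gene, had 5, 11 and 6 reads in model rats and 22, 8 and 9 in control rats. Kcnk2, a two-pore potassium channel gene, had 4, 1 and 6 reads in model rats and 3, 9 and 10 in control rats. No gene of these 3 lists passed the low-count filter of the host test, which works on the reads per library, so none was tested. No median fold of the lists can therefore be set beside the 0.042 over the 107 hosts tested.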

How the data were processed

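Total RNA from white matter was digested with RNase R, which removes linear RNA, and sequenced as 150 bp paired-end reads, per the labels' protocols. Coordinates are in mRatBN7.2, a build named in the submitters' processing notes. Neither aligner nor circRNA caller is named in the sources used here. The authors deposited 1 table with counts of back-splice junction reads per circRNA and library, a normalised signal named SRPBM, log2 fold changes, p-values and q-values from a test that is not given, and the number of exons, an annotation. SRPBM equals the count over 1 divisor per library (largest gap 1.27e-11). Its introns start 1 base early, and 1 was added, after which all 9462 pairs of introns abut their circle.

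Counts were tested in R 4.3.3 with the quasi-likelihood test of edgeR 4.0.16, after filterByExpr (min.count 10, min.total.count 15) and TMM scaling of full library totals, over all circRNAs or all host sums, with Benjamini-Hochberg adjustment at 0.05. The method was tested on simulated data with the same spread setting for every circRNA, which is simpler than these libraries, and no result here rests on that test. Standard errors are the fold over the root of its F statistic. Shares and small sums were compared by exact permutation tests (scipy 1.17.1). Alternatives were DESeq2 1.42.0, limma 3.58.1 voom, other filters and scaling, a replicate block and fits without each library in turn. Likeness used log2 of reads per 1000 plus 0.05. The members and lists were chosen with earlier results of these data known. All Unc79 circRNAs with at least 3 reads, the channel complex genes with a read, the 3 most alike circRNAs and both rank neighbours were named by rule; Kcnt2, Kcnk2, rarer circles and genes in orders of all hosts or circRNAs were named after their values were seen. All 89 listed gene names, with Fam155a and Fam155b as second names of Nalf1 and Nalf2, are in RefSeq's GRCr8 gene table, used for names only. Replicates are separate rats.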

Additional observations from a re-analysis of the deposited data

How the results depend on the processing

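No alternative brought the main circle or the sum past the threshold. The lowest adjusted p in edgeR was 0.805 for the main circle and 0.79 for the sum. With so few rats, the exact tests of the share and of the rare circles could not reach 0.05 in any setting, the sign-flip test included. The log2 fold of the main circle kept its direction in 12 of 14 alternatives and turned to -0.073 with the authors' divisors (chosen after seeing the data) and to -0.048 without control rat 1. With 1 library left out it ranged from -0.048 to 0.35. The sum kept its direction in 13 of 14, turned to -0.075 with the divisors and ranged from 0.0045 to 0.28 with 1 library left out. The difference in the main circle's share ranged from -1.08 to 2.44 points with 1 library left out, turning to -1.08 without model rat 2 and -0.616 without control rat 1. That of the rare circles ranged from -0.175 to 0.257 reads per 1000, turning to -0.175 without model rat 1 and -0.112 without control rat 3. The cause was not tested. The count of circRNAs past the threshold fell to 0 with DESeq2 size factors in edgeR (3 at an unadjusted p under 0.05, and 2 called by DESeq2 itself) and to 0 of 8635 with no filter in edgeR (53 unadjusted). With 1 library left out edgeR called 0 to 1 circRNAs and 0 to 4 host genes (at least 3 unadjusted in each). Over 60 circRNAs no pairing by replicate number was seen. Deviations of same-numbered rats correlated at -0.11, -0.12 and -0.038, and 0 of 6 rats correlated best with their own number. With counts this low, the check cannot exclude a pairing. With the replicate block the log2 fold was 0.12 for the main circle and 0.16 for the sum, the share differed by 0.581 points (exact sign-flip p = 1), the rare circles by 0.0319 reads per 1000, and 2 circRNAs and 3 host genes passed. The rare circles rest on 1 to 6 reads each, which limits what can be said of them.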
